A study of Homo sapiens with 4 samples.

Results

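The 10 genes described here handle heme breakdown and cellular iron: HMOX1, HMOX2, BLVRA, BLVRB, FTH1, FTL, TFRC, SLC11A2, SLC40A1 and IREB2. They were taken by gene symbol from the 17721 genes that the array annotation names, and were represented by 18 of 26222 probes with a symbol and 36 of 28463 spots. RNA came from OVSAYO, a human cell line of ovarian clear cell carcinoma, and was hybridised to 4 single-colour arrays on 1 slide, with 1 array for each condition. The study asked how far the transcription factor Sp1 takes part in gene induction by CoCl2, a cobalt salt that stabilises hypoxia-inducible factors in the presence of oxygen. NS-si cells carried a non-specific siRNA and Sp1-si cells siRNA against SP1. Both were carried for 40 h by the labels, where a legend of the study gives a shorter time. NS-si→CoCl2 and Sp1-si→CoCl2 cells were transfected in the same way and then kept in 0.5 mM CoCl2 for 4 h.

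Heme oxygenases open the heme ring, which yields biliverdin, carbon monoxide and free ferrous iron, and biliverdin reductases turn biliverdin into bilirubin. HMOX1 encodes the inducible enzyme and HMOX2 the constitutive one, and cobalt salts are classical inducers of HMOX1. The freed iron is stored in ferritin or leaves the cell through ferroportin, while the transferrin receptor brings iron in and iron regulatory proteins set the translation and stability of several of these mRNAs. Clear cell carcinomas often arise in endometriotic cysts, whose old blood is rich in heme and iron.

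Each condition was measured once, so no test between conditions was possible and none was made. The only measured spread was that between spots of the same probe on 1 array, which holds neither culture nor labelling variation. A log2 ratio below is the difference between arrays of log2 signal after each array was scaled to its 75th percentile, and a gene was called when it passed 2-fold. The 75th percentiles ran from 977 to 1287 signal units, so that without scaling every ratio of Sp1-si→CoCl2 to NS-si→CoCl2 would be higher by 0.40 on the log2 scale. SP1 itself was measured by a probe with 10 spots, at 553 and 429 units on the NS-si and NS-si→CoCl2 arrays and at 39.2 and 38.7 units on the Sp1-si and Sp1-si→CoCl2 arrays. On every array, all 8 epithelial and clear cell markers examined stood well above background, but NAPSA and CDH1 were lower with Sp1-si, NAPSA at 965 to 984 units against 3835 to 5131 and CDH1 at 12931 to 16848 against 39380 to 42491. Of the markers of other cells, 4 of 6 erythroid (not HBB), 2 of 5 leukocyte and macrophage (not PTPRC and LYZ), 1 of 3 endothelial (not CDH5 and PECAM1) and 3 of 3 fibroblast genes were detected on each array. The summed leukocyte and macrophage signal was 892 to 1168 units on the NS-si arrays and 288 to 528 on the Sp1-si arrays, and the fibroblast sum was 648 to 872 and 374 to 440. The erythroid sum, 797 to 1286 units, and the endothelial sum, 43.6 to 61.8 units, overlapped between the siRNAs in the first case and were slightly higher with Sp1-si in the second. The part of these shifts in the results below was not tested. In bulk RNA, fewer cells with a transcript and less of it per cell cannot be told apart. Ratios between Sp1-si and NS-si arrays hold the response to loss of SP1 together with any effect of the different siRNA reagents, and these cannot be told apart.

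Because Sp1 binds GC boxes, the proximal promoters are shown of SLC40A1 and BLVRB, which had more signal with Sp1-si, and of FTL, which had less without CoCl2. The SLC40A1 signal was close to background, and the size of its ratios depended on the setting. Those of BLVRA and IREB2 are not printed, because their windows lie inside the annotated gene. The RefSeq promoter table (GRCh38.p14) had an entry for 8 of the 10 genes, all but HMOX1 and FTH1. These entries gave 13 windows of 250 bases, each before a listed start, 4 of them for SLC11A2 and 2 each for HMOX2 and IREB2. A listed start can lie inside the annotated gene, and the windows of BLVRA and IREB2 are counted here. The GC box GGGCGG was found on either strand in 8 of the 13 windows, 1 for each gene, against 42.6% of 35116 promoters of the same length. The hypoxia response element core, ACGTG or GCGTG, was found in 8 of the 13, against 43.2% of promoters. The letters TGACNNNGC, an antioxidant response element, were found in 0 of the 13, against 10.9% of promoters. The following windows end at the base before the gene start and read 5′ to 3′ along the gene, with GC boxes and hypoxia response element cores of either strand in capitals (CCGCCC, and CACGT or CACGC, where the match lies on the other strand), and no match overlapped another. SLC40A1 (chr2:189580787-189581036, minus strand) held 3 GC boxes and 0 hypoxia cores, BLVRB (chr19:40465746-40465995, minus strand) held 6 and 2, and FTL (chr19:48965059-48965308, plus strand) held 2 and 3.
SLC40A1: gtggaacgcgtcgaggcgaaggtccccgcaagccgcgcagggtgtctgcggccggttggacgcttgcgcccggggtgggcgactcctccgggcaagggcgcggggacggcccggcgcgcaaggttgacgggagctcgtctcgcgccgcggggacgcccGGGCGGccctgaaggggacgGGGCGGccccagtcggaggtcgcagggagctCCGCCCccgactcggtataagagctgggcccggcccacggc
BLVRB: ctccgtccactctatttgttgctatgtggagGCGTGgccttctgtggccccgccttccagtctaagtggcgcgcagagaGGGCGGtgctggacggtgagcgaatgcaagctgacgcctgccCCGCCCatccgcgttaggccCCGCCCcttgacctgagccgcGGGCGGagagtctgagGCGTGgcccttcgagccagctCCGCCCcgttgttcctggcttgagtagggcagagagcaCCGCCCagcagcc
FTL: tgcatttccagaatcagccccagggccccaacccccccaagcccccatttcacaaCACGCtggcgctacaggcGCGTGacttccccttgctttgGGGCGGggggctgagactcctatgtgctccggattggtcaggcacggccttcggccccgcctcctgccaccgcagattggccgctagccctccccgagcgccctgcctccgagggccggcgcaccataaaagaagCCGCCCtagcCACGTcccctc
A match is a run of letters and not a measured binding site.

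Except for that of SLC40A1, the 18 probes (17 of them) rose well above background on every array, and 0 of their spots were saturated. HMOX1 and TFRC were measured by probes with 10 spots and the other 16 probes by 1 spot each. For single spots, the typical SD between spots of like brightness is given, which was at most 0.0806 on the log2 scale in these 4 comparisons outside the dimmest of 5 brightness classes. SLC40A1 lay in that class, where it was 0.29 to 0.36.

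**Figure D1:**
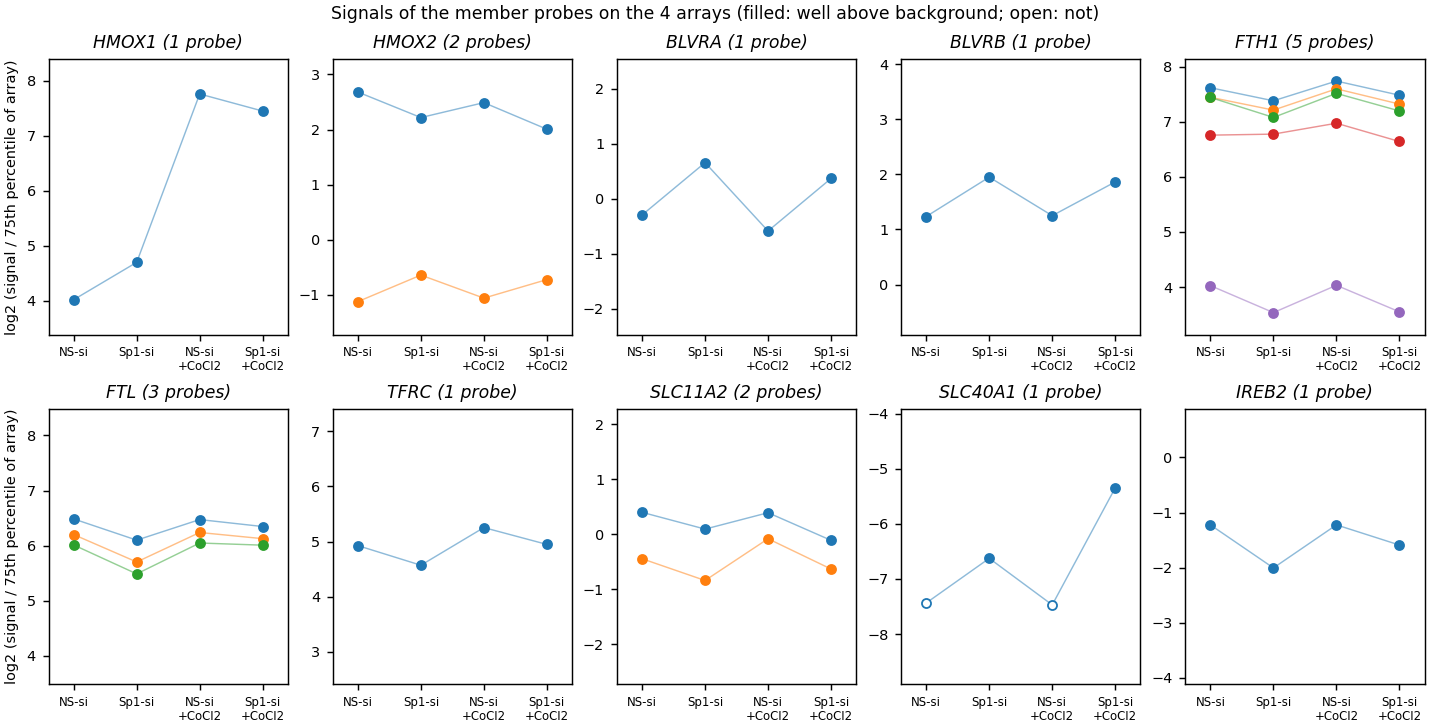
Signals of the 18 probes of the 10 genes on the 4 arrays, as log2 of the signal over the 75th percentile of its array, with 1 line for each probe and the same log2 span in each panel. HMOX1 steps up on both CoCl2 arrays, BLVRA and BLVRB are higher on both Sp1-si arrays, and open circles mark the 2 arrays where SLC40A1 was not well above background.

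Among the heme-degrading enzymes, HMOX1 alone responded to CoCl2 by more than 2-fold. Its signal was 18562 units with NS-si, 28579 with Sp1-si, 211173 with NS-si→CoCl2 and 224414 with Sp1-si→CoCl2. The CoCl2 arrays therefore lay far above both others, and the Sp1-si array without CoCl2 lay above the NS-si array. Before scaling, the 10 spots did not overlap between NS-si (18313 to 19101 units) and Sp1-si (28004 to 29713 units). They did overlap between NS-si→CoCl2 (195586 to 231813 units) and Sp1-si→CoCl2 (206125 to 247054 units). Compared position by position, though, the Sp1-si→CoCl2 spot was the brighter one at every position before scaling. After scaling, the log2 ratios by position ran from −0.33 to −0.28.

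HMOX1 rose 13.3-fold with CoCl2 in NS-si cells, or by 3.73 ± 0.073 on the log2 scale (SD, 10 spots), and ranked 8 of 15115 genes. In Sp1-si cells it rose 6.71-fold, or by 2.75 ± 0.075 (SD, 10 spots), and ranked 34 of 14930 genes. The smaller ratio went with a higher starting level. Without CoCl2, Sp1-si cells had 1.60 times the HMOX1 signal of NS-si cells (log2 ratio 0.68 ± 0.022, SD over 10 spots). Under CoCl2 the log2 ratio of Sp1-si to NS-si was −0.31 ± 0.018, and without scaling it was 0.09, so the direction between the CoCl2 arrays was not settled. The difference of both CoCl2 ratios was −0.99 ± 0.025, at the 2.97th percentile of 14283 genes, and −0.53 without scaling.

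HMOX2, the constitutive isoenzyme, was read by 2 probes that disagreed in direction between Sp1-si and NS-si cells. Probe A_23_P100501 gave 7329, 5116, 5486 and 5176 units in NS-si, Sp1-si, NS-si→CoCl2 and Sp1-si→CoCl2 cells. Probe A_24_P381945 gave 525, 705, 469 and 780 units in the same order. The first was lower in Sp1-si cells, with log2 ratios of −0.46 without CoCl2 and −0.48 under it, and the second was higher, with 0.48 and 0.34. Both probes moved little with CoCl2, between −0.21 and 0.06 on the log2 scale, so the constitutive gene did not share the HMOX1 response and its Sp1-si ratio depended on the probe.

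The biliverdin reductases differed more between the siRNAs than with CoCl2. BLVRA, which reduces the main biliverdin isomer formed by heme oxygenase, had signals of 932 units with NS-si, 1732 with Sp1-si, 651 with NS-si→CoCl2 and 1662 with Sp1-si→CoCl2. Both Sp1-si arrays lay above both NS-si arrays. The log2 ratio of Sp1-si to NS-si was 0.95 with and without CoCl2 (typical spot SD 0.039 and 0.037), or 1.94-fold and 1.93-fold, just under the 2-fold threshold. The log2 ratio with CoCl2 was −0.29 under either siRNA. Over 8 settings of the signal values the BLVRA log2 ratio of Sp1-si to NS-si under CoCl2 ran from 0.89 to 1.35, past 2-fold in 3 of them.

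BLVRB, a flavin reductase that also acts on fetal biliverdin, had signals of 2690, 4249, 2325 and 4683 units in NS-si, Sp1-si, NS-si→CoCl2 and Sp1-si→CoCl2 cells. Again both Sp1-si arrays lay above both NS-si arrays. Sp1-si cells had 1.64 times the NS-si signal without CoCl2 (log2 ratio 0.71, typical spot SD 0.029) and 1.53 times under CoCl2 (log2 ratio 0.61, typical spot SD 0.033). The CoCl2 log2 ratios were 0.02 with NS-si and −0.09 with Sp1-si. Thus the genes for the inducible heme oxygenase and for both reductases each had more signal on the Sp1-si than on the NS-si array without CoCl2, under each setting tried, and none passed 2-fold in that comparison.

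**Figure D2:**
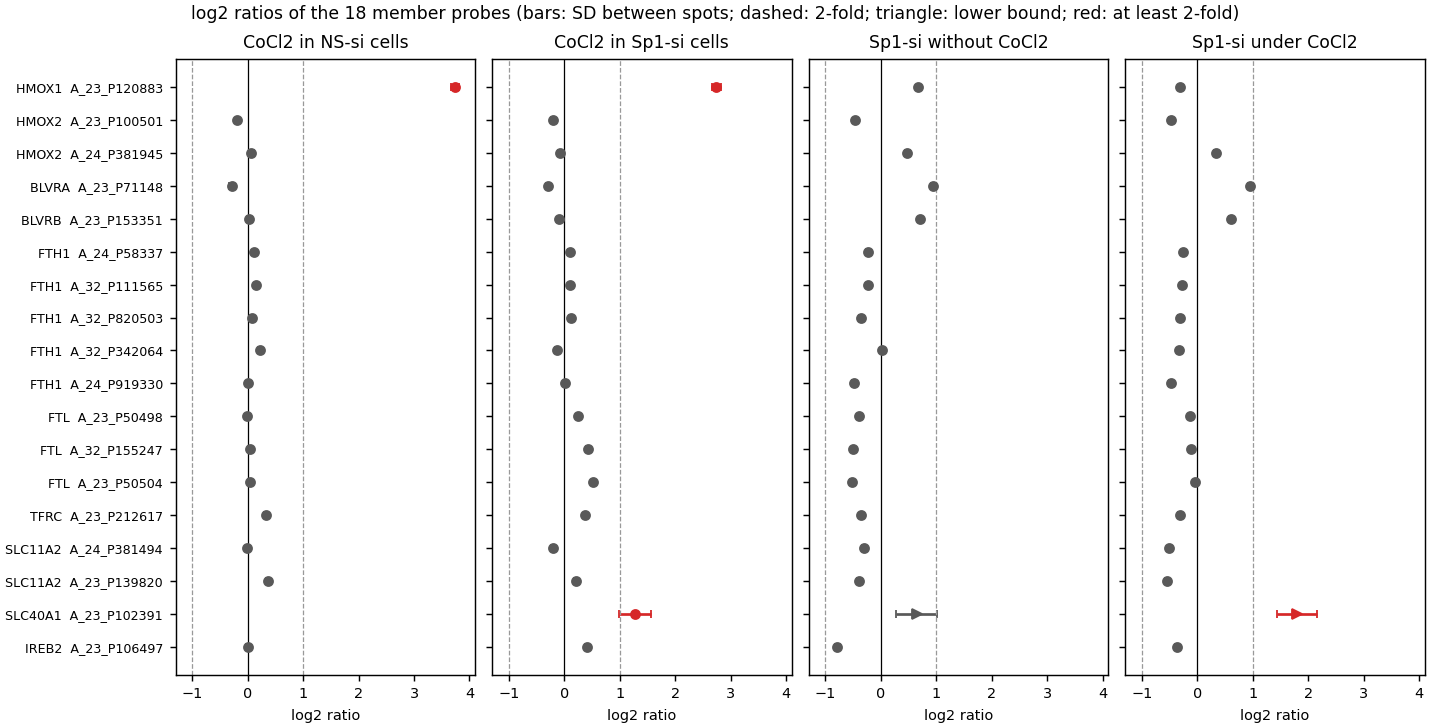
log2 ratios of the 18 probes in the 4 comparisons, with bars for the SD between spots (own spots for HMOX1 and TFRC, typical of like signals otherwise), dashed lines at 2-fold, triangles for lower bounds and red for ratios of at least 2-fold. HMOX1 stands at 3.73 and 2.75 in the CoCl2 comparisons, and most ferritin, transferrin receptor and SLC11A2 probes lie left of 0 in both Sp1-si comparisons.

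Ferritin, the iron store, is built of heavy chains (FTH1), which oxidise ferrous iron, and light chains (FTL), which help to form the mineral core. The 5 FTH1 probes ranged from 12762 to 230262 units over the 4 arrays, and the 3 FTL probes from 49331 to 104783 units. Both genes have many processed pseudogenes, and which copies each probe can bind was not checked here. Ferritin transcripts changed little with CoCl2 in NS-si cells, at log2 ratios of 0.01 to 0.22 for FTH1 and −0.01 to 0.04 for FTL.

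The brightest FTH1 probe, A_24_P58337, gave 224498 units with NS-si, 183294 with Sp1-si, 208856 with NS-si→CoCl2 and 230262 with Sp1-si→CoCl2. Its log2 ratio of Sp1-si to NS-si was −0.24 without CoCl2 and −0.26 under it. Without CoCl2, 4 of the 5 FTH1 probes had ratios from −0.49 to −0.23, and A_32_P342064 differed, at 0.02. Those 4 ratios stayed below 0 in each of 8 settings. Under CoCl2 the 5 ratios ran from −0.48 to −0.26, and without scaling 4 of them were above 0, A_24_P919330 being the exception.

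For FTL, every probe had a larger CoCl2 ratio in Sp1-si cells. Probe A_23_P50498 gave 102295 units with NS-si, 75399 with Sp1-si, 86789 with NS-si→CoCl2 and 104783 with Sp1-si→CoCl2. Probe A_32_P155247 gave 83995, 57289, 73777 and 89945 units in this order. Probe A_23_P50504 gave 73706, 49331, 64627 and 82868 units. In each of the 3 probes the Sp1-si array without CoCl2 was the lowest. Its log2 ratios to NS-si were −0.38, −0.50 and −0.52. With CoCl2, the ratios in Sp1-si cells were 0.25, 0.42 and 0.52, and those in NS-si cells were −0.01, 0.04 and 0.04. The differences of the CoCl2 ratios were 0.26, 0.38 and 0.48, all above 0 in each of 8 settings, and no FTL ratio reached 2-fold. Of these settings, leaving out scaling raises the difference of every gene by 0.45 and could not have turned those of FTL.

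TFRC, the transferrin receptor that imports iron, had similar scaled CoCl2 ratios under both siRNAs. It gave 34732 units with NS-si, 26121 with Sp1-si, 37278 with NS-si→CoCl2 and 39740 with Sp1-si→CoCl2, from 9 spots after 1 outlier was left out. With CoCl2 the log2 ratio was 0.33 ± 0.026 with NS-si and 0.38 ± 0.030 with Sp1-si (SD, 9 spots), or 1.25-fold and 1.30-fold. The difference of these ratios, 0.05, was close to its SD of 0.047, but was 0.50 without scaling. Sp1-si to NS-si log2 ratios were −0.36 ± 0.027 without CoCl2 and −0.31 ± 0.035 under it, the latter turning to 0.09 without scaling.

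SLC11A2 encodes DMT1, which carries ferrous iron across the plasma and endosomal membranes. Its probe A_24_P381494 gave 1505, 1173, 1281 and 1193 units in NS-si, Sp1-si, NS-si→CoCl2 and Sp1-si→CoCl2 cells. Its probe A_23_P139820 gave 839, 615, 923 and 831 units. Both were lower in Sp1-si cells, at log2 ratios of −0.30 and −0.39 without CoCl2 and −0.50 and −0.55 under it, and these signs held in each of 8 settings. The probes differed in the CoCl2 ratio of NS-si cells, which was −0.01 for the first and 0.36 for the second.

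SLC40A1 encodes ferroportin, the cellular iron exporter, and was the dimmest of the genes. Its probe gave 6.60 units with NS-si, 11.1 with Sp1-si, 5.51 with NS-si→CoCl2 and 31.6 with Sp1-si→CoCl2. It was well above background only on both Sp1-si arrays, and highest with CoCl2. In Sp1-si cells CoCl2 raised it 2.43-fold (log2 ratio 1.28, typical spot SD 0.29). Against NS-si cells it was at least 1.56-fold higher in Sp1-si cells without CoCl2 and at least 3.46-fold higher under CoCl2. These are bounds, set against the dimmest signal that counted as well above background. With a background correction by the normexp method the 3 log2 ratios shrank to 0.16, 0.22 and 0.23. This correction adds a fixed offset of 50 units, above every SLC40A1 signal, so the ratios had to shrink. Their size was therefore not settled by this setting.

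IREB2 encodes iron regulatory protein 2, an RNA-binding sensor of iron that controls ferritin and transferrin receptor mRNAs. Its probe gave 489 units with NS-si, 274 with Sp1-si, 418 with NS-si→CoCl2 and 428 with Sp1-si→CoCl2. The Sp1-si array without CoCl2 stood apart as the lowest. Its log2 ratio to NS-si was −0.78 (typical spot SD 0.037), or 0.582-fold, and under CoCl2 the ratio was −0.37, turning to 0.03 without scaling. With CoCl2 the log2 ratio was 0.00 with NS-si and 0.42 with Sp1-si. The difference, 0.41, stayed above 0 in each of 8 settings, the same direction as for FTL. As for FTL, leaving out scaling (0.45 higher for every gene) or keeping outlier spots (no change here) could not have turned it.

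Counted over the 10 genes with 1 probe each, CoCl2 raised 1 of the 9 genes with a value in NS-si cells, HMOX1, where 4.22% of 15127 genes were called higher and 3.54% lower. In Sp1-si cells it raised 2 of 10, HMOX1 and SLC40A1, where 3.66% of 15088 genes were called higher and 4% lower. Between Sp1-si and NS-si cells without CoCl2 0 of 10 were called, against 6.22% of 15202 genes higher and 6.17% lower. Under CoCl2 1 of 10, SLC40A1, was called higher, against 7.15% of 15072 genes higher and 8.07% lower. The difference of the CoCl2 ratios was called in 0 of 9, against 0.973% of 14283 genes higher and 2.88% lower.

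The medians of the log2 ratios of these genes were 0.00 and 0.17 for CoCl2 in NS-si and Sp1-si cells, beside 0.00 and −0.01 over all genes. They were −0.27 and −0.28 for Sp1-si to NS-si without and under CoCl2, beside −0.01 and −0.03 over all genes. Of the 18 probes, 12 were below 0 in Sp1-si to NS-si cells without CoCl2 and 14 under it, the latter count falling to 4 without scaling. FTH1 supplied 5 of the probes and FTL 3. By gene, with 1 probe each, 6 of 10 were below 0 without CoCl2 and 7 of 10 under it. The medians over all genes, close to 0, place about as many genes below 0 as above. Apart from HMOX1 and the dim SLC40A1, the CoCl2 ratios of the other 16 probes stayed between −0.29 and 0.52.

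HMOX1 transcription is held down by BACH1 and driven by NFE2L2 (NRF2), both of which bind DNA as partners of the small MAF proteins, and KEAP1 holds NRF2 protein low. These regulators were examined as one role of a wider list of heme and iron genes. Of the list's 65 genes, 63 had a probe. In NS-si cells CoCl2 raised 3 of 6 regulators with a probe, MAFF, MAFG and MAFK, where 4.22% of all genes were called higher. In Sp1-si cells it raised 2, MAFF and MAFK, where 3.66% of all genes were called higher, and the role's median log2 ratio was 1.15 with NS-si and 0.81 with Sp1-si.

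MAFF gave 512 units with NS-si, 966 with Sp1-si, 3042 with NS-si→CoCl2 and 3682 with Sp1-si→CoCl2. It thus had the order of signals seen for HMOX1. It rose 6.95-fold with CoCl2 in NS-si cells (log2 ratio 2.80, typical spot SD 0.030) and 3.26-fold in Sp1-si cells (1.70, typical spot SD 0.031). Without CoCl2 its log2 ratio of Sp1-si to NS-si was 0.97, just under 2-fold, and the difference of the CoCl2 ratios was −1.09 (−0.64 without scaling). MAFF was the single gene of the list called in that difference.

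MAFG rose with CoCl2 by log2 ratios of 1.38 and 1.57 in NS-si cells on its 2 probes, and the ratios in Sp1-si cells were 0.82 and 0.98. MAFK had log2 ratios of 1.48 and 1.17 on its brighter probe and 0.78 and 0.43 on the other. BACH1, the repressor, had CoCl2 ratios of 0.91 with NS-si and 0.80 with Sp1-si on its brighter probe. KEAP1 had 0.52 and 0.45. NFE2L2 mRNA had 0.03 and −0.13. Over all genes, the difference of the CoCl2 ratios had a median of 0.01 and quartiles of −0.22 and 0.23. On the brightest probe of each gene, all 6 regulators had a smaller CoCl2 ratio with Sp1-si than with NS-si, by 0.06 to 1.09. Their median difference was −0.23, and the smallest lay between the quartiles over all genes. The shared direction of the 6 regulators holds for the scaled values, and without scaling each difference is higher by 0.45, which leaves MAFF and MAFG below 0.

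**Figure D3:**
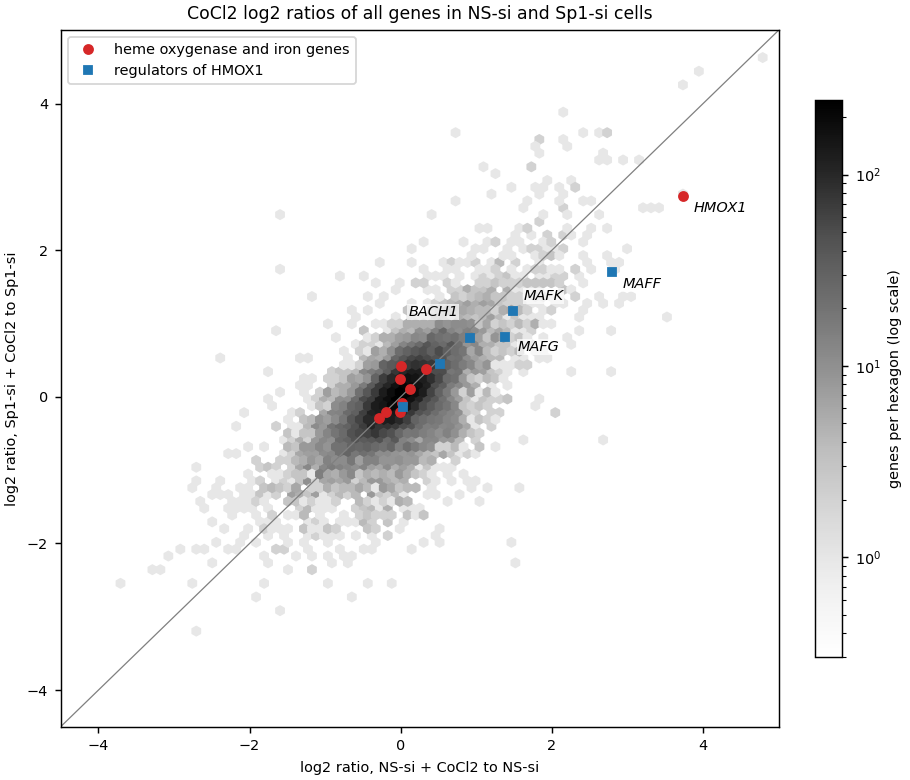
CoCl2 log2 ratios of all genes with a value in both kinds of cell, NS-si on the x axis and Sp1-si on the y axis, with grey hexagons for the number of genes, red circles for the heme oxygenase and iron genes and blue squares for the regulators of HMOX1. HMOX1 (3.73, 2.75) and MAFF (2.80, 1.70) lie below the line of equal ratios, while the other iron genes sit near the origin, and SLC40A1, without a ratio in NS-si cells, is not drawn.

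Heme synthesis was called in 0 of 9 genes in each comparison. FECH, ferrochelatase, which inserts iron into heme, had the highest CoCl2 ratios of the role on its brighter probe, with log2 values of 0.51 with NS-si and 0.67 with Sp1-si. ALAS1, the first and rate-setting enzyme outside red cells, had −0.22 and −0.42. PPOX, a late enzyme of the pathway, had log2 ratios of Sp1-si to NS-si of 0.90 and 0.91 without and under CoCl2.

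Heme transport and binding was the longest role of the list. Between Sp1-si and NS-si cells under CoCl2, 1 of its 12 genes was called higher and 4 lower, with a median of −0.34, beside 7.15% and 8.07% over all genes. FLVCR1, a heme exporter, gave 9492 units with NS-si, 4369 with Sp1-si, 11307 with NS-si→CoCl2 and 5212 with Sp1-si→CoCl2, and its Sp1-si to NS-si log2 ratios were −1.06 and −1.52. ABCG2, a transporter that also exports porphyrins, gave 688, 133, 827 and 260 units, with ratios of −2.31 and −2.07. The signals of both exporters were lower on both Sp1-si arrays than on both NS-si arrays.

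SLC48A1, which moves heme out of lysosomes, had Sp1-si to NS-si ratios of −0.99 and −1.50, and CoCl2 lowered it to 0.498-fold in Sp1-si cells. LRP1, the receptor for heme-hemopexin, was higher in Sp1-si cells by 1.55 and 1.71. HP, haptoglobin, was higher by 1.24 without CoCl2, and its ratio was 0.56 under it. CD163, the macrophage receptor for haptoglobin-hemoglobin, stood well above background only with NS-si and CoCl2, at 42.6 units, which is at least 6.73-fold over NS-si cells and at least 5.49-fold over Sp1-si→CoCl2 cells. Of the other macrophage and leukocyte markers, CSF1R (158, 32.1, 333 and 113 units) and CD68 (720, 248, 785 and 402 units) were also highest on that array, and PTPRC and LYZ were not well above background on it. Their part in the CD163 signal was not tested.

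Among genes of iron uptake and reduction, STEAP2, an endosomal ferrireductase, had the largest changes. It gave 225 units with NS-si, 537 with Sp1-si, 31.2 with NS-si→CoCl2 and 151 with Sp1-si→CoCl2. CoCl2 lowered it, with log2 ratios of −2.62 with NS-si and −2.06 with Sp1-si. Its Sp1-si to NS-si ratios were 1.31 and 1.87. SLC39A8, a zinc and iron importer, had Sp1-si to NS-si ratios of −1.34 and −1.19.

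Of the genes for iron export and its control, BMP6, the ligand that drives hepcidin in liver, gave 751, 190, 1289 and 595 units in NS-si, Sp1-si, NS-si→CoCl2 and Sp1-si→CoCl2 cells. CoCl2 raised it 2.01-fold with NS-si, at the edge of the threshold (log2 ratio 0.78 without scaling), and 2.67-fold with Sp1-si. Its Sp1-si to NS-si ratios were −1.93 and −1.51. In ferritin turnover 0 of 4 genes were called, and NCOA4, the receptor that carries ferritin to autophagy, had Sp1-si to NS-si ratios of −0.68 and −0.49. FTMT, mitochondrial ferritin, was well above background for 1 of its 2 probes, at 1115 to 2489 units, with a CoCl2 ratio of 0.08 with NS-si and 0.93 with Sp1-si.

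Iron sensing was called in 0 of 3 genes, and ACO1, iron regulatory protein 1, had Sp1-si to NS-si ratios of −0.43 and −0.34 beside the −0.78 and −0.37 of IREB2. In the mitochondrial role, SLC25A37, the iron importer mitoferrin, was higher in Sp1-si cells by 1.20 without CoCl2. ABCB10, its partner in the inner membrane, was lower, at −1.25. Over the whole list, CoCl2 called 5 genes higher and 1 lower of 60 in NS-si cells, and 3 higher and 2 lower of 59 in Sp1-si cells, beside 4.22% and 3.54%, and 3.66% and 4%, of all genes. The Sp1-si comparisons called 4 higher and 5 lower of 59 without CoCl2, and 2 higher and 6 lower of 60 under it, beside 6.22% and 6.17%, and 7.15% and 8.07%, of all genes. None of these small counts was tested against the shares over all genes, and they are not read as a trait of the list. The medians of the list were 0.02, 0.03, −0.06 and −0.03. Some calls depended on the setting. Without scaling, SLC48A1 for CoCl2 in Sp1-si cells (−0.78) and SLC39A8 under CoCl2 (−0.79) fell short of 2-fold. With normexp, so did HP (0.75) and SLC25A37 (0.82) without CoCl2, STEAP2 under CoCl2 (0.93) and CD163 for CoCl2 in NS-si cells (0.89). The normexp correction adds a fixed offset to every signal, which shrinks the ratios of dim probes such as these. The losses with normexp therefore cannot show whether those calls were unstable.

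**Figure D4:**
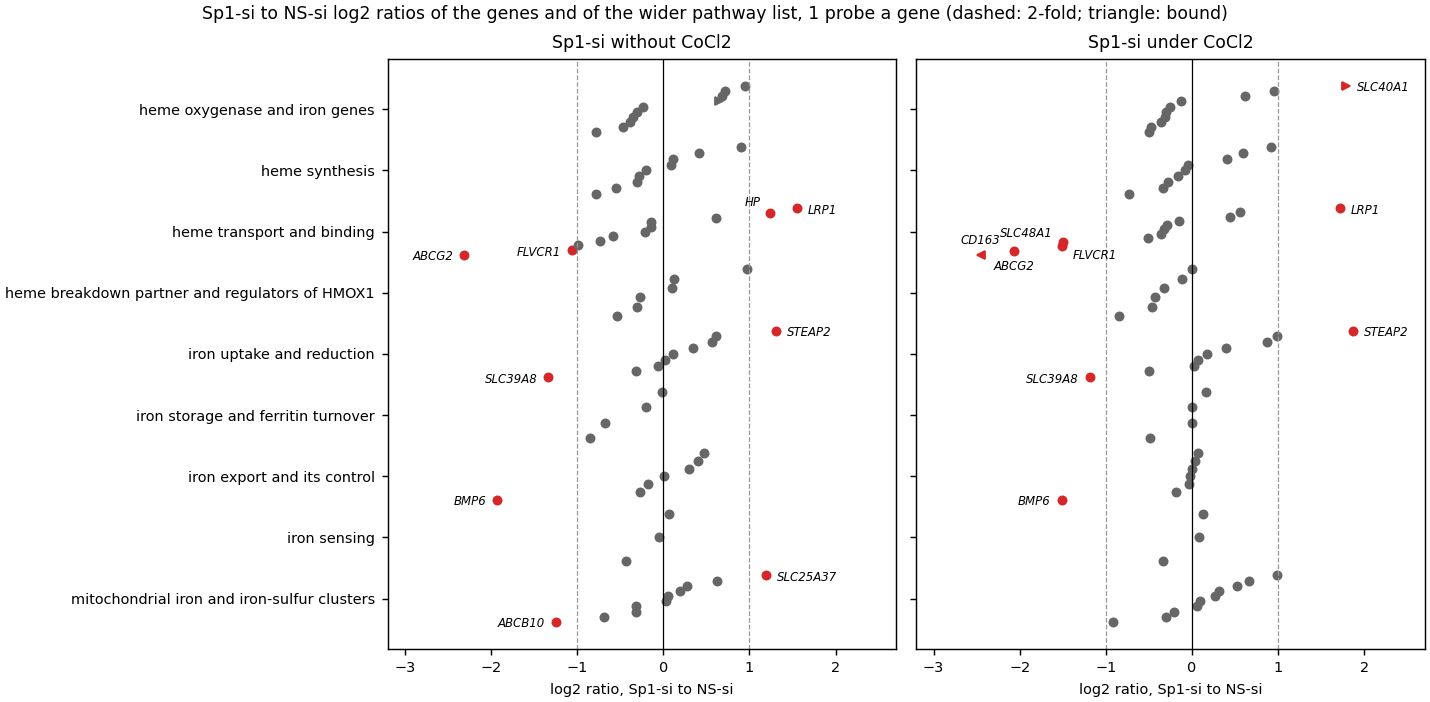
Sp1-si to NS-si log2 ratios without CoCl2 (left) and under CoCl2 (right), 1 point for each gene with a value, by role, with dashed lines at 2-fold, red for ratios past it and triangles for bounds. ABCG2 at −2.31 and BMP6 at −1.93 are the lowest points without CoCl2, and STEAP2 and LRP1 lie past 2-fold on the higher side in both panels.

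The genes whose signals moved most like those of HMOX1 were looked for over the 3 log2 ratios to the NS-si array, among 14290 genes well above background on all 4 arrays. Nearest, by Euclidean distance in log2 units, were DOK3 (0.565), STC2 (0.676), TCAF2 (0.898), ATF3 (0.996) and NDRG1 (1.13). DOK3, an adaptor protein of immune signalling, gave 644 units with NS-si, 1022 with Sp1-si, 4985 with NS-si→CoCl2 and 7273 with Sp1-si→CoCl2. Its difference of the CoCl2 ratios was −0.58, between the −0.99 of HMOX1 and the −0.10 of STC2. For TCAF2, ATF3 and NDRG1 that difference was 0.36, 0.20 and 0.49, so these genes had the larger CoCl2 ratio in Sp1-si cells. The likeness rests on 4 arrays and describes them only.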

How the data were processed

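Total RNA was labelled with Cy3 and hybridised to Agilent 4x44K arrays, and spot intensities were extracted with Agilent Feature Extraction 10.5.1.1. The intensities used here are the processed signals deposited by the authors, from which the scanner software had subtracted background. Their own value table was each array's signal times a constant, from 1.25 to 1.58. Control spots and outlier spots (66 to 73 for each array) were left out, spots of a probe were averaged, and log2 signals were centred on the 75th percentile of each array. For a gene with several probes, the brightest was counted and all were examined. A gene was tested where its probe was well above background on at least 1 array of the comparison, and a ratio with 1 such side was given as a bound. Since each condition had 1 array, no p-value was computed, and precision is limited by this number of arrays.

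The 10 genes, the wider list and the markers were chosen with earlier results of these data known. Genes were named by rule: all 10, every listed gene past 2-fold, up to 4 others for each role, SP1, and the 5 genes most like HMOX1. The alternatives were no scaling, centring on the median, a percentile over detected probes, quantile normalization, the authors' value table, outlier spots kept, the normexp correction (offset 50, limma 3.58.1), both arrays above background, means over probes, and a 1.5-fold threshold. Of these, normexp on median signals was chosen after seeing the data. Calls of changes planted in bright probes were checked on simulated data for CoCl2 in NS-si cells. No change was planted in a dim probe, so bounds were not checked in this way. Analyses ran in Python 3.11.15 with numpy 2.4.6 and pandas 2.3.3, and in R 4.3.3. Some genes of the wider list and of the markers are not reported here by name.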

Additional observations from a re-analysis of the deposited data

Results flagged for a closer look

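In 3 genes of the wider list, the CoCl2 log2 ratio had opposite signs in NS-si and Sp1-si cells on the brightest probe of each. These ratios exceeded the spot SD as reported, and their signs held under each scaling tried. Leaving out scaling moves every CoCl2 ratio by −0.23 in NS-si cells and by 0.23 in Sp1-si cells. In these 3 genes that is away from 0, so this setting could not have changed their signs. With 1 array for each condition, these differences were not tested. How many of all genes had opposite signs was not counted. The quartiles of the CoCl2 log2 ratio over all genes were −0.27 and 0.29 with NS-si, and −0.30 and 0.27 with Sp1-si. For LCN2, lipocalin 2, which binds iron-loaded siderophores, the log2 ratio was −0.36 with NS-si and 0.16 with Sp1-si, a difference of 0.52. For LYRM4, which assists iron-sulfur cluster assembly, it was −0.27 and 0.19, a difference of 0.46, but 2 of its 5 probes were above 0 in both, A_23_P254997 (0.25 and 0.06) and A_24_P26554 (0.24 and 0.24). For ABCB10 it was −0.05 and 0.28, a difference of 0.33, with the first close in size to the typical spot SD of 0.041. For 1 of its 4 probes, A_24_P324449, the ratio was above 0 in both (0.17 and 0.67).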

How the results depend on the processing

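No result changed its direction among the calls past 2-fold. Of the counts of called genes, 83 values under the alternatives stayed within 1.5 times the reported count and 17 did not. The count of the 10 genes called between Sp1-si and NS-si under CoCl2, 1 as reported, was 3 without scaling, 2 with median centring, 2 with the authors' value table, 0 with normexp and 0 when both arrays had to be above background. With normexp, CoCl2 in Sp1-si cells called 1 of the genes in place of 2. The gene lost with normexp was SLC40A1 each time, as the offset had to shrink the ratios of so dim a probe. At 1.5-fold, Sp1-si without CoCl2 called 5, Sp1-si under CoCl2 3 and the difference of the CoCl2 ratios 1. No share of all genes past 1.5-fold was computed, so the counts at this threshold are not read as a trait of these genes or of the wider list. For the wider list, the 1.5-fold threshold called 11 and 15 genes for CoCl2 in NS-si and Sp1-si cells, 20 and 17 for Sp1-si without and under CoCl2, and 3 in the difference. That difference called 3 genes without scaling, 0 with median centring and 0 with normexp. Apart from the loss of SLC40A1 with normexp, the cause of these changes was not tested. Without scaling, the Sp1-si to NS-si ratios under CoCl2 of HMOX1, FTH1, FTL, TFRC and IREB2 turned positive (0.09, 0.14, 0.27, 0.09 and 0.03). No paired analysis was possible because each condition has 1 array. The planned normexp correction on mean signals was not run, since the files used here give median signals. Signals near background, as for SLC40A1 and CD163, carry the least precision.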
